A study of Arabidopsis thaliana with 28 samples.

Results

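The genes described here are 59 protein-coding genes of the chloroplast chromosome of Arabidopsis thaliana, those with a usable probe set and outside the ndh family. They were chosen by annotation: a probe set had to be assigned to exactly 1 gene with a plastid locus tag, and genes of the NADH dehydrogenase-like complex were left out, of which 10 had such a probe set. These 59 stand among 22746 probe sets of the array other than controls, and each gene had 1 probe set. The plastid annotation lists 67 symbols other than ndh. The others were not analysed here. By function, 33 genes were classed with the photosynthetic apparatus (photosystem II 15, photosystem I 5, cytochrome b6f complex 6, ATP synthase 6, Rubisco 1). The photosystem II class counts psbN, an assembly gene. Another 20 of the 59 genes serve plastid gene expression (small ribosomal subunit 8, large ribosomal subunit 7, RNA polymerase 4, the intron maturase matK 1), and 6 have other roles. All 59 passed the filter on low signal.

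RNA came from leaves of Arabidopsis ecotype Col-0 (stock N1092), grown at 20 °C with a 10 h light period and given low light at ambient CO2. Mature leaves were taken after 24 h of the treatment (2 arrays), and developing leaves, at insertions 19 to 21, after 2, 4, 12, 24, 48 and 96 h (4 replicates each). The treatment notes carry the letters ASm for the mature samples and AS for these developing samples, which the sources used here do not define. The labels name no transgene or mutation, and every group had the same light and CO2 treatment. The comparisons are thus between leaf ages or times and not between low light and another light level. If treatment began at one clock time, only 24, 48 and 96 h share a time of day. In comparisons with 2, 4 or 12 h, time of day and hours of treatment then cannot be told apart. Whether replicates were separate plants is not stated. The p-values therefore measure the spread between these samples, which may be technical, and the number of arrays limits precision.

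The chloroplast keeps a small genome of its own. Most of its genes are transcribed as groups of neighbours, by a bacterial-type RNA polymerase whose core subunits the plastid encodes itself and by a phage-type polymerase encoded in the nucleus, and the long transcripts are then cut, spliced, edited and trimmed. Photosynthesis genes are classically read mainly by the bacterial-type enzyme, and the rpo genes that encode that enzyme by the phage-type one. In a growing leaf the machinery of gene expression is built up early, and the photosynthetic apparatus is then assembled and maintained. Photosystem II stands out in that its D1 protein, the product of psbA, is damaged by light and constantly replaced.

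Values are MAS5 signals, a brightness per probe set on a linear scale, with each array scaled to the same trimmed mean. Array medians lay between 40.8 and 48.1 and the highest signal of an array between 3066 and 6992. The summed signal of the 59 genes was 2.74% and 3.17% of all signal in mature leaves and 1.82% to 2.97% in the 24 developing replicates. Mean level over the 59 genes was lowest in developing 4 h replicate 4 (9.06 on the log2 scale) and 12 h replicate 4 (9.13), and highest in 24 h replicate 1 (9.97), so single libraries move many plastid genes together. Around their group means, the 24 developing replicates gave a median correlation of 0.39 between pairs of the genes, 0.42 among photosynthesis genes and 0.37 among gene-expression genes. These points share their array and its scaling. In whole leaves, fewer cells or plastids of a kind and less RNA in each cannot be told apart.

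Across the 7 groups, the photosynthesis and gene-expression genes stood further apart in mature leaves than in any developing replicate. The mean log2 signal of the 33 photosynthesis genes was 10.19 and 10.48 in the mature arrays, against 9.82 to 10.15 in developing leaves at 24 h. The mean of the 20 gene-expression genes was 8.55 and 8.90 in mature leaves, against 9.30 to 9.65 in developing leaves at 24 h. The photosynthesis mean thus exceeded the gene-expression mean by 1.64 and 1.58 in mature leaves, against 0.49, 0.56, 0.46 and 0.44 in developing leaves at 24 h. Both mature values lay outside the range of all 24 developing replicates, 0.22 to 0.74. The mature mean of this difference was 1.61 ± 0.042 (SD, n = 2). In developing leaves the first 3 times had means of 0.478 ± 0.094 (2 h), 0.42 ± 0.18 (4 h) and 0.398 ± 0.18 (12 h). The later ones had 0.488 ± 0.053 (24 h), 0.455 ± 0.065 (48 h) and 0.63 ± 0.075 (96 h; SD, n = 4 each). Neighbouring times overlapped in their replicates except 96 h and 48 h: the lowest value at 96 h, 0.57, was above the highest at 48 h, 0.52, and at 24 h, 0.56. The size of the difference depends on probe affinity, so only its change between groups can be read, and as a mean over chosen genes it was given no test.

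**Figure D1:**
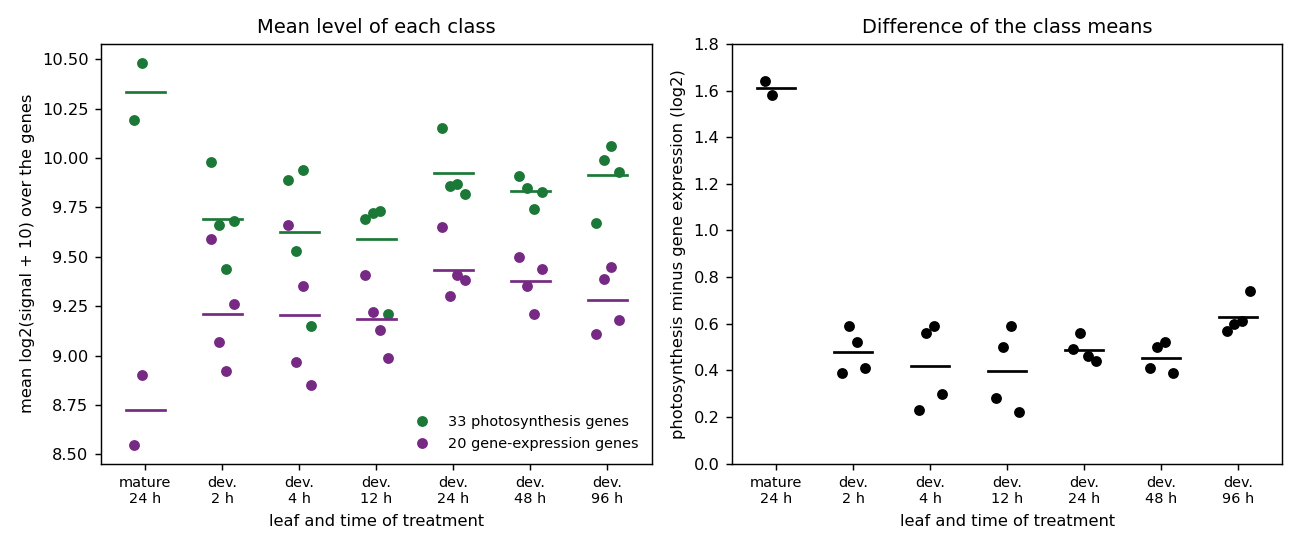
Left: mean log2(signal + 10) over 33 photosynthesis genes (green) and 20 gene-expression genes (purple), 1 point per replicate with the group mean as a line, by leaf and time. Right: photosynthesis minus gene expression in the same replicates. Both mature replicates (1.64 and 1.58) lie above all developing ones (0.22 to 0.74).

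The comparison of mature with developing leaves at 24 h asks how leaf age bears on the plastid transcripts. In mature leaves 8 of 15 photosystem II genes were higher and none was lower. Of the ribosomal genes 5 of 7 in the large and 4 of 8 in the small subunit were lower, as were 3 of 4 RNA polymerase genes, and 1 ribosomal gene, rps14, was higher. The genes of the other photosynthetic complexes did not pass the threshold, and whether they differ from photosystem II was not tested. Of the 59 genes, 11 were higher and 13 lower in limma's test with Benjamini-Hochberg adjustment at 0.05. Beside these, 27.1% of all 13647 probe sets tested were higher and 37.5% lower (64.6% in both directions). Among the photosynthesis genes 8 of 33 rose (24.2%, near the share over all probe sets) and none fell, and their median log2 change was 0.36. Among the gene-expression genes 12 of 20 fell (60%) and 1 rose (5%), with a median of -0.74. The median over all probe sets tested was -0.10. The direction of change was positive in 31 of 33 photosynthesis genes and negative in 18 of 20 gene-expression genes. Over all 13647 probe sets it was positive in 6036 and negative in 7611.

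**Figure D2:**
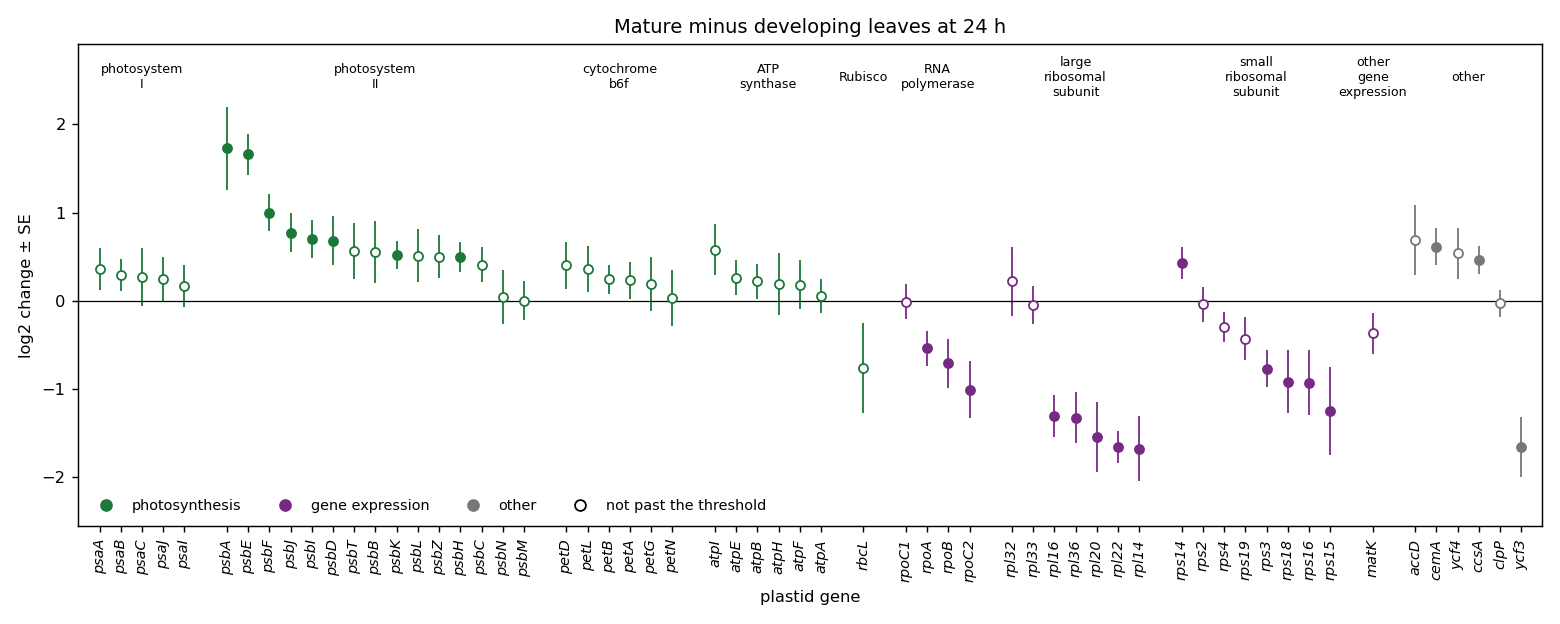
Log2 change of the 59 plastid genes, mature minus developing leaves at 24 h, with its SE, grouped by the complex each encodes; filled points passed limma's adjusted p of 0.05. Filled points above 0 lie mostly in photosystem II (8 of 15) and those below 0 mostly among the gene-expression genes (12 of 20).

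All 8 photosynthesis genes that rose encode photosystem II, and 14 of the 15 genes classed with it changed in the positive direction, with a median of 0.55. psbA, which encodes the D1 reaction-centre protein, had 3660 and 4290 in mature leaves, against 1730, 1500, 1360 and 565 in developing leaves at 24 h. Both mature arrays were above all developing replicates of every time, whose highest was 1971, and the log2 change was 1.73 ± 0.47 (3.32-fold, adjusted p = 0.0023). The developing values themselves were wide, and replicate 4 was the lowest at every time except 48 h.

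psbE and psbF encode the 2 subunits of cytochrome b559 at the core of photosystem II. psbE had 1870 and 1980 in mature leaves, against 540, 708, 670 and 516 in developing leaves at 24 h (log2 change 1.66 ± 0.23, adjusted p = 4.4e-07). psbF had 2180 and 2300 in mature leaves, against 1060, 1390, 1080 and 958 in developing leaves (1.00 ± 0.21, adjusted p = 0.00012). For both genes the mature arrays were above all 24 developing replicates, which reached 1009 for psbE and 1530 for psbF. Their neighbours on the chromosome, psbL and psbJ, which encode small subunits of the same complex, changed by 0.51 ± 0.30 (adjusted p = 0.15) and 0.77 ± 0.22 (adjusted p = 0.0029).

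The other risers in photosystem II were psbI (log2 change 0.70), psbD (0.68), psbK (0.52) and psbH (0.49). psbD encodes D2, the partner of D1 in the reaction centre, and psbI, psbK and psbH encode small subunits. psbD had 1200 and 1540 in mature leaves, against 954, 744, 785 and 923 in developing leaves at 24 h (adjusted p = 0.04). Its groups did not overlap at 24 h, but developing leaves at 96 h reached 1350. psbC and psbB, for the inner antenna proteins CP43 and CP47, changed by 0.41 (adjusted p = 0.078) and 0.55 (adjusted p = 0.17), below the threshold.

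psbM and psbZ, the 2 genes of photosystem II with the brightest probe sets, did not pass the test. psbM, for a small subunit, had 4470 and 3120 in mature leaves, against 4030, 3600, 3270 and 4150 in developing leaves at 24 h, and the groups overlapped (0.00 ± 0.22, adjusted p = 1). psbZ, for another small subunit, had 2580 and 3520 in mature leaves, against 2970, 1950, 1650 and 2150, also overlapping (0.50 ± 0.24, adjusted p = 0.07). psbN, whose product in tobacco is needed to assemble the complex and is not a subunit of it, changed by 0.04 ± 0.31.

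Photosystem I, the cytochrome b6f complex and the ATP synthase had no gene past the threshold, although all 17 of their genes changed in the positive direction, with medians of 0.27, 0.24 and 0.21. Without replicate 1 of all groups 6 of them passed, all higher: psaI, psaJ, petB, petL, atpB and atpE. Without developing 24 h replicate 1 alone atpE passed, and atpI passed with a pseudocount of 50 or with only the compared groups fitted. psaB, for a reaction-centre protein of photosystem I, had 4220 and 5100 in mature leaves, against 4540, 3420, 3490 and 3830 in developing leaves at 24 h. The other 4 genes of that photosystem, psaA, psaC, psaI and psaJ, changed by 0.17 to 0.36. psaJ, for a small subunit, had 2840 and 3370, against 4230, 1920, 2670 and 2200. Replicate 1 of the developing leaves was the highest of the 4 for both genes and lay within or above the mature values.

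petB, for cytochrome b6, had 3710 and 4460 in mature leaves, against 4440, 3210, 3180 and 3090 in developing leaves at 24 h (0.24 ± 0.17, adjusted p = 0.23). petA, for cytochrome f, had 2250 and 2780, against 2100, 2180, 2290 and 1970 (0.23 ± 0.21, adjusted p = 0.35). Both overlapped between leaf ages. In the ATP synthase, atpB (the beta subunit of the catalytic head) had 4730 and 5950, against 6080, 4080, 4050 and 4250. atpE (the epsilon subunit) had 3890 and 4880, against 5150, 3350, 3150 and 3200. In both genes developing replicate 1 was above both mature arrays while the other 3 developing replicates were below them. atpI, for a membrane subunit that channels protons, was above all 24 developing replicates at low signal, with 105 and 157 in mature leaves, against 83.3, 80.3, 72.8 and 94.9 in developing leaves at 24 h, but its change of 0.58 ± 0.29 missed the threshold (adjusted p = 0.08).

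rbcL, which encodes the large subunit of the carbon-fixing enzyme Rubisco, was the photosynthesis gene with the lowest change. It had 324 and 439 in mature leaves, against 989, 697, 587 and 421 in developing leaves at 24 h (-0.76 ± 0.51, adjusted p = 0.2). The groups overlapped through developing replicate 4, so the lower level in mature leaves is within the spread of the replicates. It passed as lower when only the compared groups were fitted, with a replicate block, and without replicate 4 of all groups. Without developing 24 h replicate 4 alone it did not pass.

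**Figure D3:**
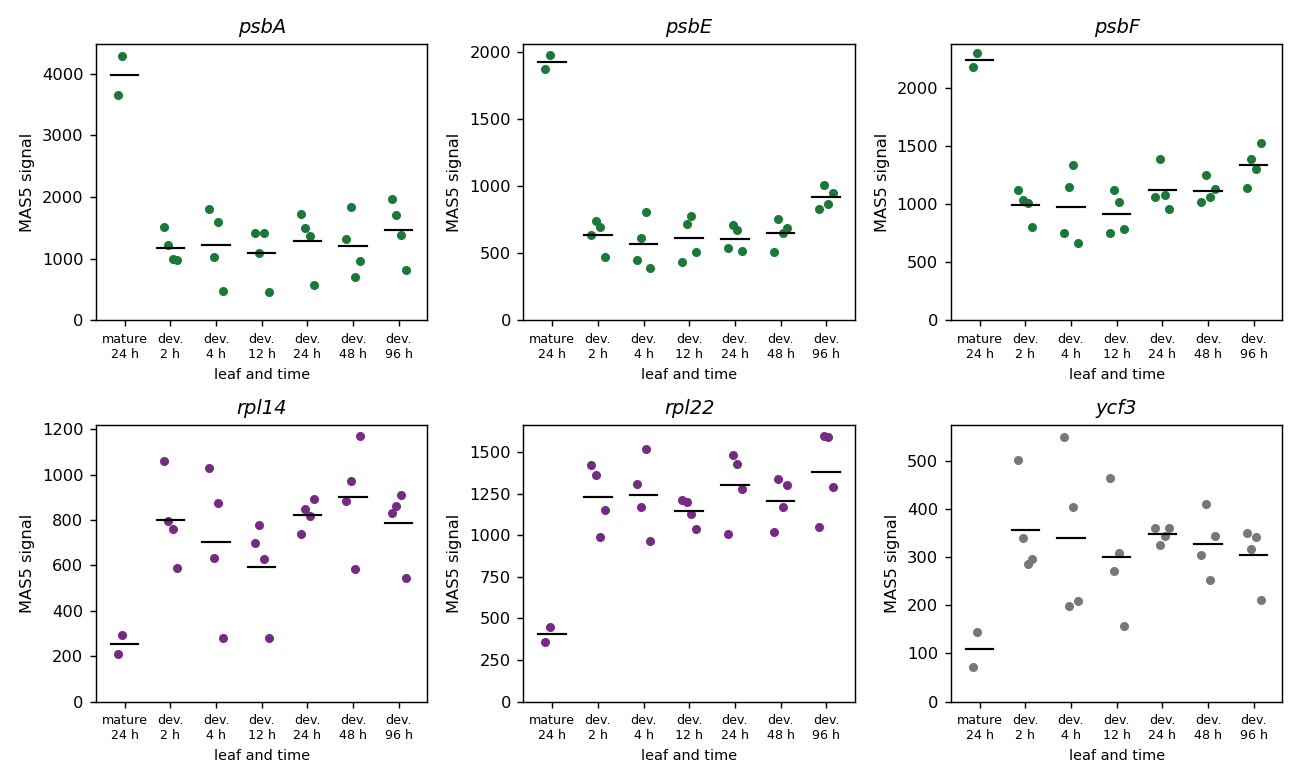
MAS5 signal of 6 plastid genes in each replicate, by leaf and time, with the group mean as a line; the y axes start at 0. The mature points of psbA, psbE and psbF are above all developing points, and those of rpl22 and ycf3 below them; one mature rpl14 value (295) is above 2 developing values of 278.

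The 4 rpo genes encode the core of the bacterial-type RNA polymerase, and 3 of them fell. rpoC2 had a log2 change of -1.01 (adjusted p = 0.0073), rpoB one of -0.71 (adjusted p = 0.028) and rpoA one of -0.54 (adjusted p = 0.02). All 3 calls ended without mature replicate 1 (adjusted p = 0.11, 0.3 and 0.051), and that of rpoB ended in 9 of 19 alternatives. rpoB was also near the filter on low signal, with 22.9 and 37.6 in mature leaves, against 36.5, 48.8, 75.8 and 64.8 in developing leaves at 24 h, and the groups overlapped. rpoA, for the alpha subunit, had 560 and 510 in mature leaves, against 789, 709, 1050 and 642 in developing leaves at 24 h, with no overlap. rpoC1, the remaining subunit, had 880 and 1300, against 1210, 1150, 1040 and 924, and did not pass the threshold (-0.01 ± 0.20, adjusted p = 0.98). rpoB, rpoC1 and rpoC2 lie side by side on the chromosome, and the gene between 2 that fell is the one near 0.

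In the large ribosomal subunit 5 of 7 genes fell, with a class median of -1.33. rpl14 had 211 and 295 in mature leaves, against 740, 849, 816 and 891 in developing leaves at 24 h (-1.68 ± 0.37, adjusted p = 0.00027). rpl22 had 358 and 449, against 1010, 1480, 1430 and 1280 (-1.66 ± 0.18, adjusted p = 7.8e-09). rpl16 had 572 and 830, against 2010, 1400, 1690 and 1860 (-1.31 ± 0.24, adjusted p = 2.9e-05). For all 3 the mature values were below every developing replicate at 24 h, and for rpl22 and rpl16 below all 24 developing replicates.

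rpl20 fell by 1.55 (adjusted p = 0.0012) and rpl36 by 1.33 (adjusted p = 0.00024). The other 2 genes of the subunit did not move past the threshold. rpl33 had 2080 and 2550 in mature leaves, against 3240, 2040, 2210 and 2190 (-0.05 ± 0.22, adjusted p = 0.87), and rpl32 changed by 0.22 ± 0.39 (adjusted p = 0.64).

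In the small ribosomal subunit 4 of 8 genes fell and 1 rose, calls that all ended without mature replicate 1. The falls were rps15 (by 1.25, adjusted p = 0.03), rps16 (by 0.93, adjusted p = 0.031), rps18 (by 0.92, adjusted p = 0.025) and rps3 (by 0.77, adjusted p = 0.0022). The gene that rose was rps14 (0.43 ± 0.18, adjusted p = 0.033), which lies next to psaB and psaA, genes that changed by 0.29 and 0.36. It had 53.1 and 46.3 in mature leaves, against 52.4, 26.5, 33.7 and 28.1 in developing leaves, low signals that overlapped, and its call ended in 9 of 19 alternatives. rps4 had 2030 and 2450 in mature leaves, against 3450, 2500, 2420 and 2710 in developing leaves (adjusted p = 0.13). rps19 had 1010 and 1500, against 2460, 1420, 1430 and 1500 (adjusted p = 0.13). matK, the maturase that helps splice plastid introns, had 1590 and 1720, against 3270, 1970, 1550 and 2110 (-0.37 ± 0.23, adjusted p = 0.16). These 3 genes did not pass the test.

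The 6 genes of other roles did not move as a group. ycf3, for an assembly factor of photosystem I, had 71.7 and 145 in mature leaves, against 360, 326, 343 and 360 in developing leaves at 24 h (-1.66 ± 0.34, adjusted p = 0.00013), and both mature values were below all 24 developing replicates. ycf4, for another assembly factor of that photosystem, changed by 0.54 (adjusted p = 0.11). ccsA, needed in Chlamydomonas to attach haem to c-type cytochromes, had 3430 and 3520, against 2910, 2330, 2410 and 2490 (0.46 ± 0.16, adjusted p = 0.014). cemA, for an envelope membrane protein, rose by 0.61 (adjusted p = 0.014). accD, for a subunit of the acetyl-CoA carboxylase of fatty acid synthesis, changed by 0.69 (adjusted p = 0.13). clpP, for a subunit of the plastid Clp protease, had 2680 and 2330, against 2940, 2340, 2340 and 2660 (-0.03 ± 0.15, adjusted p = 0.87).

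Counted without a model, both mature arrays were above all 4 developing replicates at 24 h in 9 of 33 photosynthesis genes and below them in none, and above in none and below in 11 of 20 gene-expression genes. Among all probe sets tested 30.1% lay wholly above and 40.1% wholly below. Against all 24 developing replicates 10 of the 59 genes lay wholly above (psbA, psbE, psbF, psbJ, psbK, psbH, atpI, accD, cemA and ccsA) and 3 wholly below (ycf3, rpl16 and rpl22), beside 19% and 27.4% of all probe sets.

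Of the 24 genes past the threshold, 9 stayed past it under every alternative of the processing and without each replicate in turn: psbA, psbE, psbF, rpl14, rpl16, rpl20, rpl22, rpl36 and ycf3. The count was 13 (3 higher, 10 lower) without mature replicate 2, and of photosystem II only psbA, psbE and psbF then kept their calls. Without mature replicate 1 it was 16 (10 higher, 6 lower), and no gene of the RNA polymerase or the small ribosomal subunit passed, while the same 5 genes of the large subunit and ycf3 stayed lower. Without replicate 1 of all groups it was 31 (23 higher, 8 lower), with 13 of 15 photosystem II genes higher and 7 of 20 gene-expression genes lower. A minimum change of 2-fold left 3 higher and 8 lower.

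The position of the genes on the plastid chromosome cut across these classes in places and followed them in others. The run rps19, rpl22, rps3, rpl16, rpl14, rpl36 and rpoA changed by -0.43, -1.66, -0.77, -1.31, -1.68, -1.33 and -0.54, where rps19 did not pass the threshold. Genes not analysed here lie on both sides of rpl36 in that run. The run psbE, psbF, psbL and psbJ was positive throughout. In other places adjacent genes differed: ycf3 fell by 1.66 next to psaA (0.36), and rpl33 (-0.05), rps18 (-0.92) and rpl20 (-1.55) descended along their run. The 51 adjacent pairs differed by a median of 0.52 on the log2 scale, against 0.61 over all 1711 pairs of the 59 genes. Adjacent pairs of the same functional class numbered 35 and differed by a median of 0.46, and the 16 of different classes by 0.60.

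**Figure D4:**
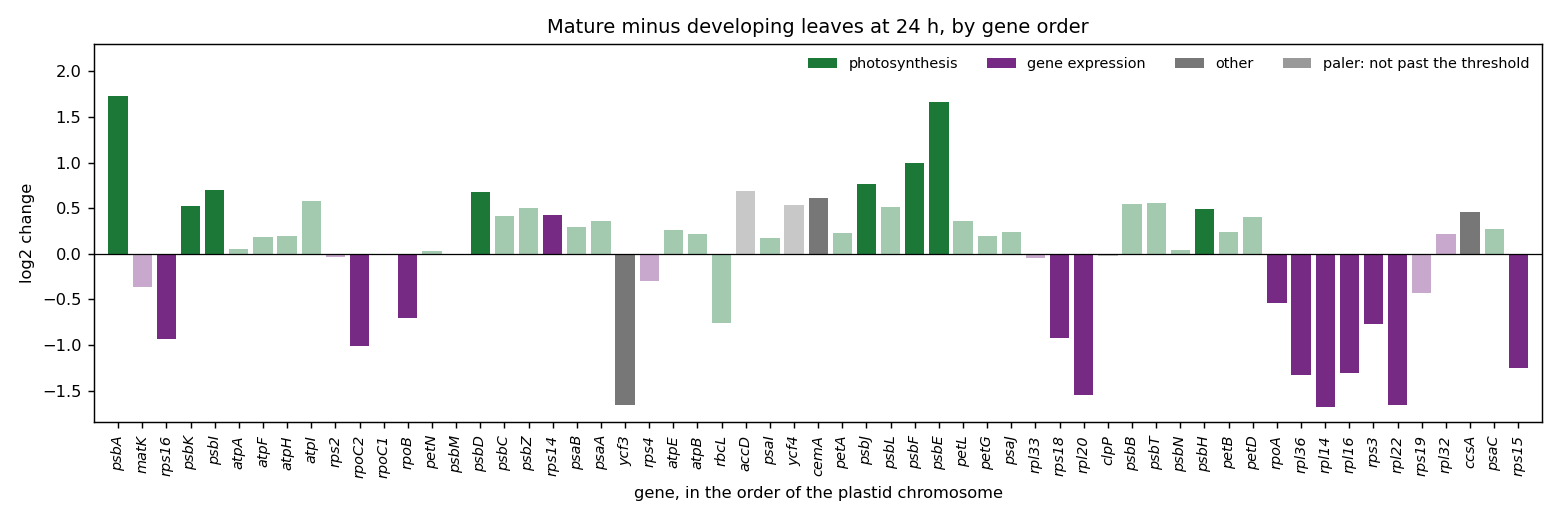
Log2 change, mature minus developing leaves at 24 h, for the 59 plastid genes in the order of the chromosome (distances not to scale), coloured by function; paler bars did not pass the adjusted p of 0.05. All measured genes from rpoA to rps19 are negative (-0.43 to -1.68), with genes not analysed on both sides of rpl36, and those from psbJ to psbE positive (0.51 to 1.66).

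Nuclear genes that supply the same complexes were few on the lists with a named probe set. In mature leaves PSAE-1 and PSAN of photosystem I were higher by 0.51 (adjusted p = 0.028) and 0.55 (adjusted p = 0.002), and 2 of 3 nuclear photosystem II genes rose (PSBW and PSBY). ATPC1 of the ATP synthase rose by 0.52 (adjusted p = 0.0028) and ATPC2 did not pass (-0.32, adjusted p = 0.09). Of 3 antenna genes LHCB4.2 rose (0.69), LHCB4.3 fell (-0.70, adjusted p = 0.00033) and LHCB4.1 did not pass. These counts stand beside 27.1% of all probe sets higher and 37.5% lower. Among the nuclear genes of plastid RNA processing the editing factor CRR21 fell by 0.89 and the splicing factor CAF1 by 0.97. LPA66, OTP84 and CFM3A of the same list did not pass the threshold. CRR22 had 10.6 ± 6.8 in mature leaves (SD, n = 2) and 36.8 ± 7.6 in developing leaves at 24 h (SD, n = 4), and CRR28 had 16.3 ± 0.24 and 40.4 ± 3.7. Both, also editing factors, passed the filter on low signal through developing leaves. With mature means under it, no test and no size of a change are given for them. No gene of the lists for nuclear plastid ribosomal proteins or transcription factors had a named probe set.

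Marker genes and ratios of RNA integrity were also compared between the leaf ages. The one senescence marker with a probe set, WRKY53, stood at 189 ± 38 in mature leaves (SD, n = 2). Developing leaves at 24 h had 22.4 ± 3.9 (SD, n = 4). That mean is under the filter on low signal (27.83), so no test and no size of its rise are given. Mesophyll markers LHCB4.1, LHCB4.2 and RCA were strong in both leaf ages, with 1 of 3 higher in mature leaves, and the stomatal-lineage marker FMA changed by -0.26 (adjusted p = 0.23). The markers of vasculature, meristem or flower and pollen had no named probe set. The log2 ratio of 3' to 5' actin probes, a measure of RNA integrity, was 0.71 and 0.73 in mature leaves, against 0.59 to 1.08 in developing leaves at 24 h. An older pair of actin probes gave 1.12 and 2.14 in mature leaves, against 1.68 to 2.03 in developing leaves at 24 h, so the mature values lay on either side of that range, and 1.12 was the lowest of all arrays. The part of tissue makeup, senescence and RNA quality in the plastid changes was not tested.

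Along the times in developing leaves few plastid genes passed a test of change. A moderated F test over the 6 times passed for 12 of 59 genes (20.3%), beside 57.7% of all probe sets tested. They were 9 photosynthesis genes (psbD, psbH, psbE, psbN, psbC, atpH, atpA, petB and psaB), 1 gene-expression gene (rpl36), clpP and ycf4. The count was 2 with replicate 4 of all groups left out, 19 with replicate 1 of all groups left out and 20 without 96 h replicate 1.

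Between 24 h and 12 h the plastid genes that changed were all higher at 24 h. This comparison has 13 genes up and none down, beside 20% of all probe sets higher and 22.2% lower (42.2% in both directions). The share that rose, 22%, is near that of all probe sets, while the median change was 0.30 for the 59 genes and -0.01 for all probe sets. The risers were 10 of 33 photosynthesis genes (median 0.35), 2 of 20 gene-expression genes (median 0.18), rps4 and rpl36, and clpP. The photosynthesis genes were psbN, psbD, psbH, psbM, psbK, atpH, atpA, atpB, petB and psaB. The part of time of day in the change from 12 h to 24 h was not tested.

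psbN had signals of 136, 49.5, 66.2 and 86.5 at 24 h, against 61.4, 30.1, 43 and 23.9 at 12 h, low values in which 24 h replicate 2 lies below 12 h replicate 1 (log2 change 0.91 ± 0.25, adjusted p = 0.005). atpH, for the ring-forming c subunit of the ATP synthase, had 1230, 1220, 1530 and 1960 at 24 h, against 612, 1060, 1210 and 497 at 12 h (0.87 ± 0.29, adjusted p = 0.016). psbD had 954, 744, 785 and 923 at 24 h, against 595, 573, 686 and 310 at 12 h (0.70 ± 0.23, adjusted p = 0.017). The groups of atpH and psbD did not overlap, and 12 h replicate 4 was the lowest value in both.

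clpP had 2940, 2340, 2340 and 2660 at 24 h, against 1670, 1860, 2210 and 1330 at 12 h, without overlap (0.55 ± 0.12, adjusted p = 0.00063). The rises of psbH, atpA, psaB, atpB, petB, psbM, psbK, rps4 and rpl36 were between 0.35 and 0.64. The rise rested partly on single libraries. The count of genes past the threshold was 8 without 12 h replicate 1, 8 without 24 h replicate 1, 7 (6 higher, 1 lower) without 12 h replicate 4, 7 without replicate 1 of all groups, and 3 (2 higher, 1 lower) without replicate 4 of all groups. After quantile normalization it was 5 higher and 1 lower. None of the 13 genes kept its call in all alternatives, and after quantile normalization psaB (-0.04) and atpB (-0.01) had slightly negative changes.

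**Figure D5:**
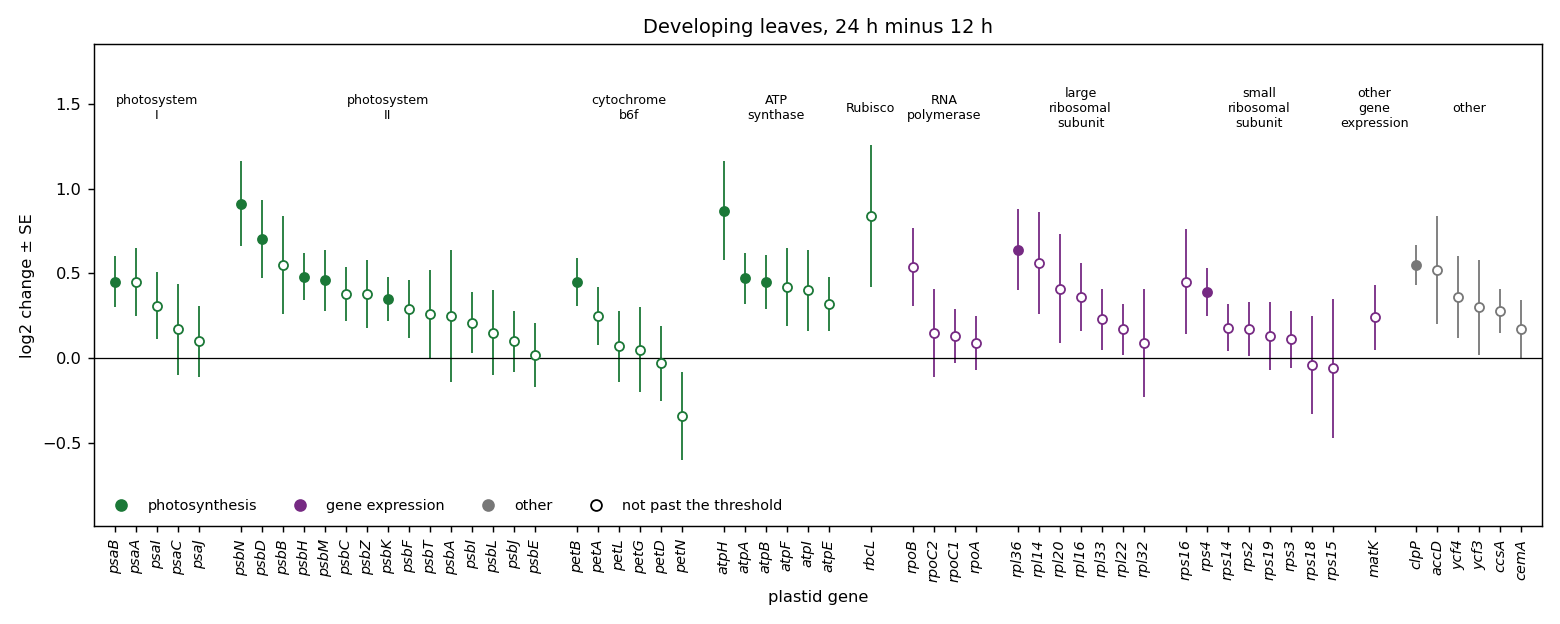
Log2 change of the 59 plastid genes in developing leaves, 24 h minus 12 h, with its SE, grouped by complex; filled points passed limma's adjusted p of 0.05. The 13 filled points lie above 0 (0.35 to 0.91), 10 of them in photosynthesis genes.

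The other steps in time gave 1 gene or none. Between 4 h and 2 h no gene of the 59 passed (limma; 1 at an unadjusted p under 0.05), beside 2.78% of all probe sets (1.6% higher, 1.18% lower), and between 48 h and 24 h none passed (0 at an unadjusted p under 0.05), beside 0.0659% (0.0586% higher, 0.00733% lower). At 12 h against 2 h only psbN passed, beside 38.7% of all probe sets (20.4% higher, 18.4% lower). It had 61.4, 30.1, 43 and 23.9 at 12 h, against 68.1, 78.6, 46.6 and 89.5 at 2 h, with overlap of the groups (log2 change -0.73 ± 0.25, adjusted p = 0.024). Its call ended when replicate 2 or replicate 4 of either time was left out, and without replicate 3 of either time 2 genes were lower.

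From 2 h to 24 h 55 of the 59 genes changed in the positive direction and 4 in the negative. Of all 13647 probe sets tested, 7147 changed in the positive and 6500 in the negative direction. Their median change was 0.25, against 0.01 over all probe sets tested. In limma's test 10 had an unadjusted p under 0.05, beside 3388 of all 13647 probe sets. The 59 genes share their arrays and scaling. At 24 h against 2 h only clpP passed, beside 12.1% of all probe sets (5.85% higher, 6.29% lower). It had 2940, 2340, 2340 and 2660 at 24 h, against 2040, 2170, 1730 and 1960 at 2 h, with no overlap (0.38 ± 0.12, adjusted p = 0.044). No gene of the 59 passed without replicate 3 or 4 of 2 h or replicate 1 or 4 of 24 h. Without replicate 1 or 2 of 2 h 2 genes were higher, and clpP was not among them without replicate 1 (limma, adjusted p = 0.059). The call of clpP ended in 13 of 21 alternatives. At 96 h against 24 h only psbE passed, beside 8.96% (4.62% higher, 4.35% lower). It had 833, 1010, 869 and 949 at 96 h, against 540, 708, 670 and 516 at 24 h, again with no overlap (0.59 ± 0.19, adjusted p = 0.048). No gene passed without any one 96 h replicate, or without replicate 1, 3 or 4 of 24 h. The call of psbE at 96 h ended in 14 of 21 alternatives. The comparisons of 24 h with 2 h and 12 h, of 48 h and 96 h with 24 h, and of mature leaves share the developing 24 h samples.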

How the data were processed

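Biotin-labelled target on Affymetrix ATH1 arrays gave 1 intensity per probe set; per the submitters' processing notes, the deposited intensity values are linear MAS5 signals. In the values each array is scaled to a 2% trimmed mean of 100. The labelling primer and the MAS5 version are not given in the sources used here. Plastid RNA carries poly(A) tails mainly when marked for decay, so a signal made with an oligo-dT primer need not follow intact transcript.

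Of 28 arrays, 27 were used. The pair of arrays sharing the title 24 h replicate 1 entered as their log2 mean, giving 26 replicates. An array titled 4 h replicate 1 whose note reads ES was put in no group. Probe sets with a mean above the 40th percentile (27.83) were tested as log2(signal + 10), 13647 in all, by limma 3.58.1 in R 4.3.3 (eBayes with trend, 7 groups, 19 residual degrees of freedom, two-sided, Benjamini-Hochberg, threshold 0.05). The steps were tested on simulated data. There a log2 change of 0.5 was called in 52% of cases (24 h against 12 h) and 40% (mature leaves). A change of 1 was called in 98% and 94%, and one of -1 in 94% and 84%. In the simulation changes of 0.5 were thus often missed. Each size was given to 50 of 13647 probe sets, with 187 and 170 calls in all. In the data 5765 and 8821 probe sets were called, which makes the adjusted threshold less strict there. The simulated rates thus need not apply to the data. Fold changes refer to signal plus 10.

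Names and gene order come from the TAIR10.1 annotation. Members, lists and tests were chosen with earlier results of these data known. Values per array are given for the 2 strongest probe sets of each class and the 3 largest rises and falls. Those of atpI, rpoB and rps14, and of psbD in mature leaves, were added after their values were seen. The marker symbol FDH matched formate dehydrogenase, not the epidermal gene, and was dropped. Replicate numbers were not used to pair the samples in the main fit. Same-numbered replicates correlated at a median of 0.05, against -0.02 for different numbers. Of the same-numbered pairs 28 of 72 exceeded 0.1, and the highest reached 0.62. Whether same-numbered replicates belong together was not tested. Alternatives covered pseudocounts, filters, normalization, array weights, blocks, the doubled arrays and left-out replicates. No genome or promoter table was used here.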

Additional observations from a re-analysis of the deposited data

Results flagged for a closer look

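In the groups of 4 replicates, the highest or lowest signal of a gene stood far from the other 3 in 18 of 168 groups tested, over 27 genes and the difference of the class means. Chance flags about 1 in 20 groups of independent, normally distributed values. The groups here share their arrays and mostly hold linear signals, so that rate need not apply. Replicate 1 gave 13 of the 18 values, and in 12 of these it was the highest.

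At 24 h, replicate 1 was high for rps19 (2460, others 1420 to 1500), atpB (6080, others 4050 to 4250), atpE (5150, others 3150 to 3350), petB (4440, others 3090 to 3210) and rpl33 (3240, others 2040 to 2210). At 48 h it was high for matK (2850, others 1880 to 2020), atpE (4880, others 3070 to 3180), psaJ (3830, others 1990 to 2230) and rpl33 (3250, others 1840 to 2020). It was also high for rps19 at 4 h (2100, others 1340 to 1380) and 12 h (2040, others 1310 to 1400) and for rpoA at 12 h (802, others 703 to 718). At 96 h it was low for psbZ (1610, others 2090 to 2160).

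Replicate 3 was low at 2 h for atpE (2160, others 3400 to 3480) and ccsA (1540, others 2120 to 2160), and high at 4 h for petB (3970, others 2980 to 3000) and petA (2200, others 1680 to 1760). Replicate 4 was low at 12 h for rbcL (150, others 445 to 493). The part of single libraries in these values was not tested.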

How the results depend on the processing

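Of 40 gene results under 812 alternatives, 663 kept their direction and side of the threshold, 147 lost the call and 2 reversed. These were psaB (-0.04) and atpB (-0.01) at 24 h against 12 h after quantile normalization; the cause was not tested. The count at 12 h against 2 h (1) was 0 with no filter or a 2-fold minimum, and 2 after quantile normalization or with a replicate block. At 24 h against 2 h (1) it was 0 with no filter, quantile normalization, median centring or a 2-fold minimum. It was 2 with a pseudocount of 50, array weights, the second 24 h array or only the compared groups, and 4 with a filter at the 60th percentile. clpP was not among the genes called with array weights (limma, adjusted p = 0.061) or only the compared groups (0.064). The count at 24 h against 12 h (13) was 8 with no filter, 6 after quantile normalization and 0 with a 2-fold minimum. At 96 h against 24 h (1) it was 0 with a pseudocount of 1, no filter, quantile normalization, median centring, the second 24 h array or a 2-fold minimum. For mature leaves (24) a 2-fold minimum left 11. The change in the class difference (1.12) was 1.03 with a pseudocount of 50 or quantile normalization and 1.2 at the 60th percentile. The F test count (12) was 6 with no filter, 7 after median centring and 19 with array weights.

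With replicates left out, counts ran from 0 to 0 at 4 h against 2 h, 0 to 2 at 12 h and at 24 h against 2 h, 3 to 14 at 24 h against 12 h, 0 to 0 at 48 h and 0 to 1 at 96 h against 24 h, 13 to 31 for mature leaves and 2 to 20 for the F test. The class difference ran from -0.12 to 0.01, -0.14 to -0.02, -0.02 to 0.05, 0.03 to 0.16, -0.05 to -0.01, 0.09 to 0.17 and, for mature leaves, 1.1 to 1.15. Leaving out replicate 4 of all groups was chosen after seeing the data. The replicate block gave 16 at 24 h against 12 h and 26 for mature leaves, and ended the calls of psbD in mature leaves (adjusted p = 0.054) and clpP at 24 h against 2 h (0.051); 13 of 26 replicates correlated best with their own number, a hint from the data and not the design. An alternative with the weakest probe set per gene could not be run, since each gene had 1. Mature leaves had 2 arrays, and signals near 27.83 limit rps14, rpoB, psbN and atpI.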

Other observations

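The arrays both titled 24 h replicate 1 differed over the 59 genes by a median of -0.16 on the log2 scale, first minus second, with a range from -0.85 to 0.64, and 6 genes were over 0.5 apart. Over all probe sets tested they correlated at 0.979.

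The array whose note reads ES lay above all developing 4 h replicates in 15 of the 59 genes, below them in 4 and within their range in 40.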
